A study of Mus musculus with 9 samples.

Results

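Lung RNA of mice kept in hypoxia and labelled as knocked down for Hif-1α was compared with lung RNA of normoxic mice. The comparison takes 6 of the 9 libraries of the study, 3 with each label, chosen by the treatment that the labels state, and describes all measured genes with weight on those of lung structure and metabolism. The normoxia group received neither hypoxia nor the knockdown, so any difference between these groups can come from either treatment, and the design does not separate them within this pair. The remaining 3 libraries, from hypoxic mice without the knockdown, are used to place the values, since the difference between the knockdown label and hypoxia alone is the test of what the label adds. The study asks what sustained hypoxia does in the mouse lung and what lowering HIF-1α does in hypoxic mice. All groups are mouse lung by source and tissue, although the sample titles carry the word muscle. The labels name no strain, genotype, age, oxygen level, length of exposure or hour of collection, and they do not say how the knockdown was made or which cells it reached. They also leave unsaid whether the 3 samples of a group came from separate animals, so a p-value here reflects only how far these samples scatter, and that scatter may be partly technical.

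HIF-1α is the oxygen-regulated subunit of a transcription factor. With oxygen present, prolyl hydroxylases mark it for degradation, and in hypoxia it accumulates, pairs with ARNT and activates genes of glycolysis, lactate production, angiogenesis and iron handling. Most of this control acts on the protein, so the Hif1a transcript is a check on a knockdown but not on HIF-1α activity. The lung gas exchange surface is built of flat alveolar type 1 cells, surfactant-producing type 2 cells and a dense capillary endothelium on a shared basement membrane, held in a matrix of collagen and elastic fibres made largely by fibroblasts and smooth muscle cells.

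The libraries held lung RNA. Their totals were 16229815 to 16736131 counts in normoxia and 15566485 to 18046442 in the libraries labelled knockdown. Levels are given as CPM, the count scaled to a common library total with TMM factors. Before those factors, a count of 3 corresponded to 0.166 to 0.193 CPM. Floors of this kind cover counting error only, and the labels name no molecular identifiers. Sftpc, which encodes surfactant protein C, stood at 15085, 13001 and 13646 CPM in normoxia and 16476, 19685 and 14466 CPM in the libraries labelled knockdown. The skeletal muscle genes Acta1 and Myh4 did not exceed 0.523 and 0.0570 CPM in any library, and Myh4 was at 0 in all 6 libraries compared here. Along the first principal component, which held 32.5% of the variance, normoxia scored -39.32 to -28.88, hypoxia -5.07 to 18.1 and the knockdown label 21.6 to 30.03.

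Summed marker levels moved with the groups for some cell types. In bulk RNA, fewer cells of a type and less RNA per cell cannot be told apart. The 25 general endothelial genes summed to 12034 to 13380 CPM in normoxia and 9549 to 10121 in the knockdown label, without overlap. Markers of red cells, of which 17 matched, summed to 2149 to 4997 CPM in normoxia against 618 to 809. The 16 genes of natural killer and cytotoxic cells went the other way, from 78.6 to 94.9 CPM up to 426 to 683, the 18 monocyte and interstitial macrophage genes from 7878 to 8848 up to 9884 to 13331, and the 15 neutrophil genes from 314 to 545 up to 607 to 835. Cardiac muscle genes, which in lung come from the sleeves of pulmonary veins, were uneven inside every group, with sums of 183 to 1064 CPM in normoxia and 64.4 to 745 in the knockdown label. Alveolar type 2 markers overlapped narrowly, at 27536 to 29232 against 29141 to 38431 CPM. The share of these shifts in the results below was not tested.

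**Figure D1:**
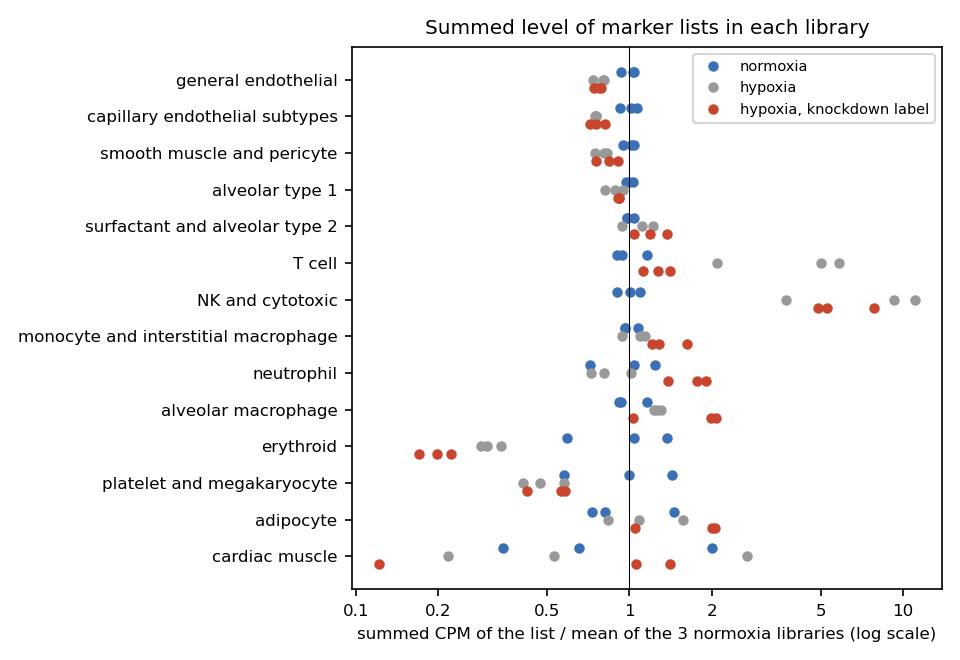
Summed CPM of each marker list in each of the 9 libraries, divided by the mean of the 3 normoxia libraries (log scale), with 1 point per library. Endothelial sums in the libraries labelled knockdown lie below all normoxia sums, cytotoxic sums lie above them, and red cell sums lie far below them.

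Hif1a was not lower in the libraries labelled knockdown than in normoxia. The gene (chromosome 12, 73901375 to 73947530, plus strand in GRCm38) stood at 80.3, 87.8 and 78.6 CPM in normoxia, 93.4, 98.3 and 88.6 CPM in hypoxia and 86.4, 85.5 and 85.0 CPM in the libraries labelled knockdown. The knockdown values fell inside the normoxia range (Hif1a log2 fold change 0.06, SE 0.08, adjusted p = 0.71, 95% interval -0.11 to 0.22), and they lay below each hypoxia value without passing the test (Hif1a against hypoxia -0.13, SE 0.08, adjusted p = 0.62). The group is therefore called by its label. Epas1, which encodes HIF-2α, had 1228, 1073 and 935 CPM in normoxia and 834, 922 and 496 CPM in the knockdown label (-0.52, adjusted p = 0.14), and the partner subunit gene Arnt had 0.11 (adjusted p = 0.37). Of 12 HIF pathway genes, 1 passed, namely Hif1an, the asparaginyl hydroxylase that inhibits HIF (log2 fold change -0.37, SE 0.08, adjusted p = 0.013), which lost its call without knockdown replicate 1 (adjusted p = 0.050). Among 35 tested HIF targets outside glycolysis 4 were higher and 2 lower with a median log2 fold change of 0.03. The largest rise of that list was Bhlhe41 (1.94), and Vegfa (-0.27, adjusted p = 0.11) was not among the genes that passed. Over all tested genes 8.23% passed, 4.79% higher and 3.44% lower, so counts this small do not set either HIF list apart. The count of lower targets was 1 without normoxia replicate 3 or knockdown replicate 1 or 2.

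Across the whole table, 1446 of 17578 tested genes changed (8.23%, edgeR quasi-likelihood test with Benjamini-Hochberg adjusted p under 0.05), 842 higher (4.79%) and 604 lower (3.44%) in the knockdown label. Of these, 445 higher and 137 lower genes moved by at least 2-fold, and the median over all tested genes was -0.0048. These are the shares that each gene list below is read against. The counts rested in part on single libraries, left out 1 at a time here and below. Without normoxia replicate 3 they were 457 higher and 258 lower, without knockdown replicate 2 they were 529 and 352, and the lower count was 338 without knockdown replicate 1 and 375 without knockdown replicate 3. In hypoxia without the knockdown, compared with the same normoxia libraries, 742 genes (4.22%) changed, 487 higher (2.77%) and 255 lower (1.45%). Both comparisons share the normoxia libraries, so a value common to both is not independent evidence.

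Among the genes eligible for naming, by the rule given under processing, the steepest rises belonged to interferon-induced genes, a clock gene and a macrophage gene. Irf7, the transcription factor that amplifies interferon production, stood at 21.2, 22.6 and 24.4 CPM in normoxia, 37.2, 24.4 and 37.8 CPM in hypoxia and 389, 309 and 419.6 CPM in the libraries labelled knockdown (log2 fold change 4.04, SE 0.18, adjusted p = 1e-06), with hypoxia near normoxia and the knockdown label far above both. Gbp10 (5.86), Tgtp1 (4.58), Zbp1 (4.27), Oas1g (4.18) and Iigp1 (4.15), all products of interferon signalling, rose with it. Cd5l, a secreted macrophage protein, rose by 5.28 from normoxia levels of 0.506, 0.483 and 0.180 CPM to 15.2, 6.66 and 24.0 CPM. Dbp, a transcription factor driven by the circadian clock, rose from 2.97, 3.99 and 4.26 CPM in normoxia to 119, 139.5 and 67.3 CPM in the libraries labelled knockdown (log2 fold change 4.85, SE 0.27, adjusted p = 1.8e-06), and its hypoxia libraries were as high at 139, 147 and 129.9 CPM.

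By the same rule, the steepest falls were those of red cell genes, a matrix gene, heat shock genes and a pigment gene. Trim10 (-5.27), with 5 counts in all knockdown libraries together, Slc4a1 (the band 3 anion exchanger, -4.92) and Hbb-bt (beta globin, -4.46) are expressed in red cell precursors or reticulocytes, and they fell in libraries where globins took 0.0169% to 0.0279% of counts, against 0.155% to 0.424% in normoxia. Spon2, which encodes the secreted matrix protein spondin 2, fell from 46.8, 18.7 and 53.9 CPM in normoxia to 1.45, 2.74 and 1.17 CPM in the libraries labelled knockdown (log2 fold change -4.49, SE 0.50, adjusted p = 0.00030). Hspa1a and Hspa1b, near-identical inducible chaperone genes whose counts are uncertain one by one, fell by 4.48 and 4.33, and both lost their call with limma-voom. Normoxia replicate 2 had only 7.92 and 9.97 CPM of them against 50.5 to 152 CPM in the other normoxia libraries. Tyrp1, a melanosome enzyme gene, rested on normoxia replicate 1 (17.1 CPM against 1.93 and 1.5) and lost its call without normoxia replicate 1, hypoxia replicate 3 or knockdown replicate 1, 2 or 3 (adjusted p = 0.057 to 0.17).

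**Figure D2:**
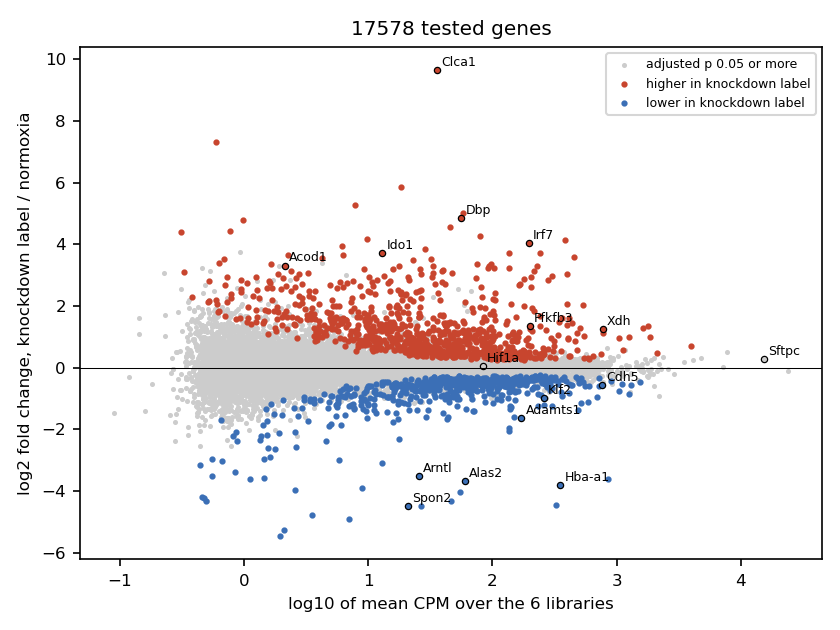
Log2 fold change of the knockdown label over normoxia for 17578 tested genes against the log10 of their mean CPM over the 6 libraries. Coloured points passed an adjusted p of 0.05; Hif1a lies at 0.06, while Irf7 and Dbp stand among the largest rises and Spon2 and Alas2 among the largest falls.

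Gene lists of lung structure leaned lower, and those of metabolism leaned higher. Over 20 structure lists with 540 tested genes, 67 were lower (12.4%) and 21 higher (3.89%), with a median log2 fold change of -0.12. Over 21 metabolism lists with 776 tested genes, 57 were higher (7.35%) and 22 lower (2.84%), with a median of 0.08. Without normoxia replicate 3 the structure count was 29 lower and 6 higher and the metabolism count 25 higher and 12 lower. Other moves past 1.5 times were 43 lower structure genes without knockdown replicate 2, and 35 higher metabolism genes without that library, 9 lower ones without knockdown replicate 1 and 14 without knockdown replicate 3. Higher structure genes numbered 12, 13 and 11 without normoxia replicates 1 and 2 and knockdown replicate 2.

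**Figure D3:**
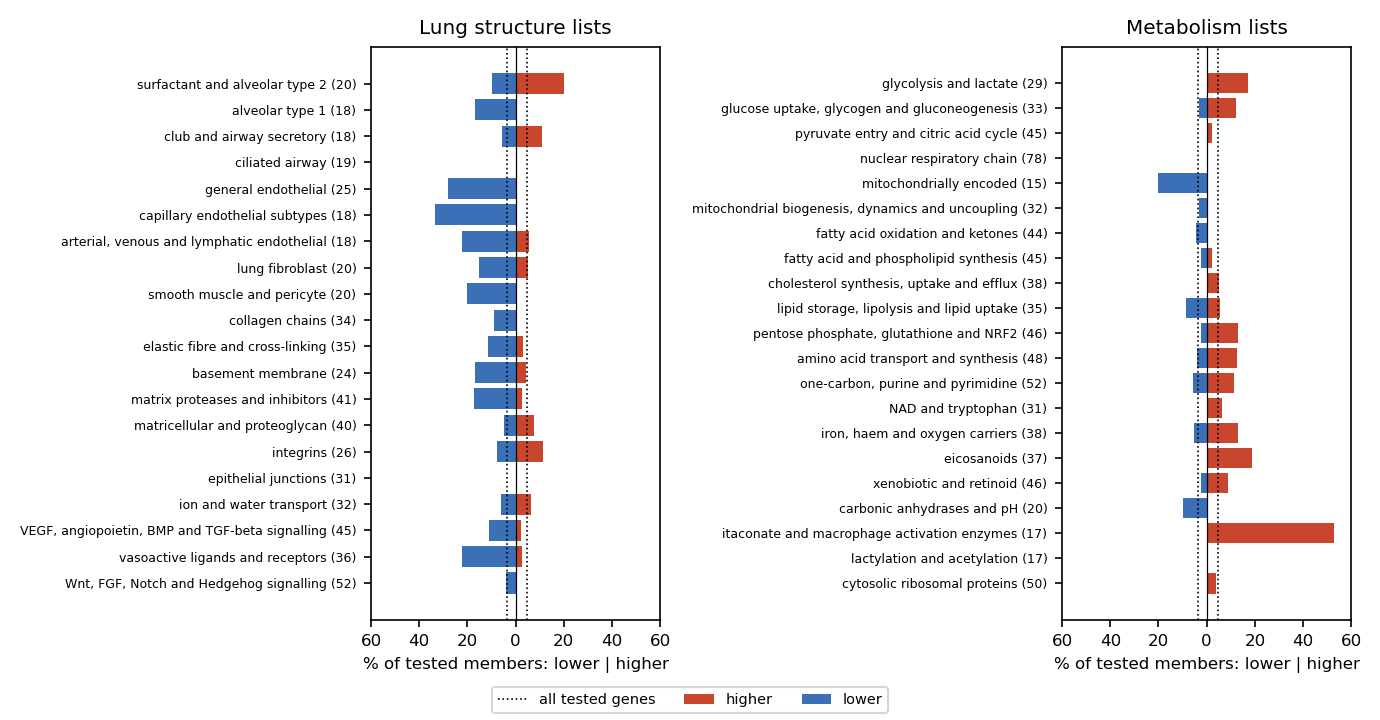
Share of the tested members of each list that was lower (left, blue) or higher (right, red) in the knockdown label than in normoxia, with the number tested in brackets; dotted lines mark the shares of all tested genes, 3.44% and 4.79%. Endothelial and vasoactive lists extend furthest to the left among the structure lists, and the itaconate and macrophage enzyme list furthest to the right.

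The endothelial lists had the highest share of lower genes among the structural cell types. Over 3 endothelial lists 17 of 61 tested genes were lower (27.9%, against 3.44% of all genes) and 1 was higher, with a median of -0.28. All 25 general endothelial genes had a fold change below 0, and 7 of them passed. The lower count over the 3 lists was 8 without normoxia replicate 3. In the general list it was 4 without normoxia replicate 3 or knockdown replicate 1.

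Klf2 and Klf4 encode transcription factors that laminar blood flow induces in endothelium and that hold it in a quiescent, anti-thrombotic state. Klf2 (chromosome 8, 72319033 to 72321656, plus strand) stood at 357, 346 and 333 CPM in normoxia and 137, 193 and 197 CPM in the libraries labelled knockdown. No knockdown library reached the lowest normoxia library (Klf2 log2 fold change -0.97, SE 0.15, adjusted p = 0.0029), and Klf4 showed the same separation, with 361, 277 and 352 CPM in normoxia and 116, 115 and 184 CPM in the libraries labelled knockdown (log2 fold change -1.26, SE 0.17, adjusted p = 0.0013). Klf2 in hypoxia was at 254, 188 and 262 CPM, below normoxia as well, and hypoxia replicate 2 fell inside the range of the knockdown label.

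Of 3 endothelial adhesion and junction genes described here, 2 fell. Cdh5, the VE-cadherin of endothelial adherens junctions, fell from 798, 982 and 943 CPM in normoxia to 605, 607 and 634 CPM in the libraries labelled knockdown (log2 fold change -0.56, SE 0.09, adjusted p = 0.0046). Cldn5, the tight junction claudin of endothelium, fell by 0.81 on the log2 scale (adjusted p = 0.0071). Pecam1, an endothelial adhesion molecule often used as the general marker, had 998, 1061 and 1114 CPM in normoxia and 900.0, 953 and 1032 CPM in the libraries labelled knockdown, with overlapping groups (-0.14, adjusted p = 0.41).

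Subtype genes of arteries, veins and capillaries were among the lower ones. Efnb2, the arterial ephrin ligand, had the smallest p of the endothelial lists, with 346, 379 and 382 CPM in normoxia and 235, 226 and 244 CPM in the libraries labelled knockdown (log2 fold change -0.65, SE 0.08, adjusted p = 0.00038). Gja5, a connexin of arterial endothelium, fell from 65.8, 72.0 and 79.9 CPM in normoxia to 31.8, 46.2 and 28.7 CPM in the libraries labelled knockdown (-1.03, adjusted p = 0.0030), whereas Gja4, the other arterial connexin, was the single higher gene (0.57, adjusted p = 0.046) and lost its call without normoxia replicate 1 or 3, hypoxia replicate 1 or 3 or knockdown replicate 1 or 2 (adjusted p = 0.055 to 0.17). Slc6a2, the noradrenaline transporter, stood at 174, 194 and 217 CPM in normoxia and 66.8, 73.0 and 108 CPM in the libraries labelled knockdown (-1.24, adjusted p = 0.0014). Vwf, a clotting protein of venous endothelium, fell by 0.59 (adjusted p = 0.014), a call lost without normoxia replicate 3 or knockdown replicate 2 (adjusted p = 0.054 to 0.063). Of 18 capillary genes 6 were lower and none higher with a median of -0.40, among them the semaphorin gene Sema3c (-0.60, adjusted p = 0.0028) and Plvap, the protein of fenestral diaphragms (-0.80, adjusted p = 0.011). Plvap lost its call without normoxia replicate 3 (adjusted p = 0.052), and the capillary count was 1 without normoxia replicate 3.

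**Figure D4:**
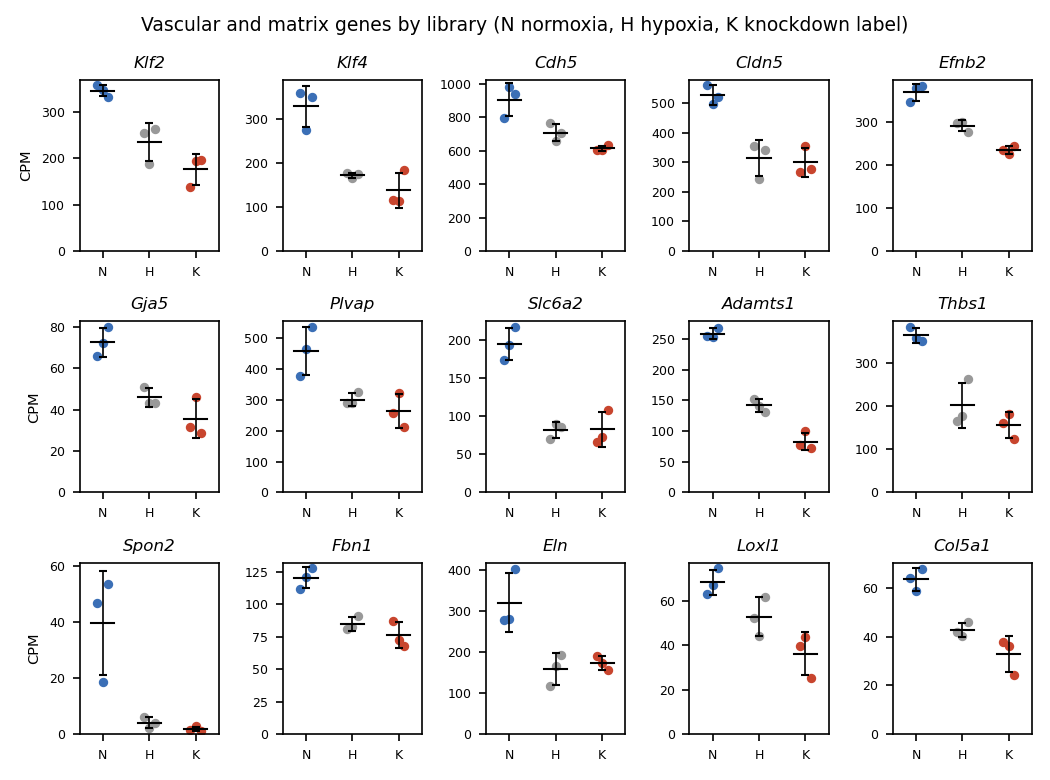
CPM of 15 vascular and matrix genes in each library, with 1 point per library, the group mean as a bar and its SD as whiskers (n = 3 libraries). Each gene has all 3 libraries labelled knockdown below all 3 normoxia libraries, and the hypoxia libraries lie below normoxia as well. All 15 were shown as genes already called lower, so this separation follows largely from the choice and is no further evidence.

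Fibroblast and smooth muscle lists had 7 lower genes of 40 tested (17.5%) and 1 higher. The lower count was 3 without normoxia replicate 3 or knockdown replicate 3 and 4 without normoxia replicate 1 or knockdown replicate 1 or 2. Macf1 (-0.55, adjusted p = 0.0030) and Limch1 (-0.43, adjusted p = 0.0059), which link or activate the actomyosin cytoskeleton, and Mylk, the myosin light chain kinase that drives smooth muscle contraction (-0.41, adjusted p = 0.0061), fell by less than 0.6. Mylk values were tight, at 341, 352 and 378 CPM in normoxia and 269, 263 and 274 CPM in the libraries labelled knockdown. Inmt, a methyltransferase abundant in lung fibroblasts, was the higher gene (0.48, adjusted p = 0.013). Myh11, the smooth muscle myosin, overlapped between groups at 111, 103 and 91.1 against 117, 64.6 and 106 CPM, and Acta2, smooth muscle actin, passed only marginally (-0.64, adjusted p = 0.049) and lost its call without normoxia replicate 1 or 3, hypoxia replicate 1 or knockdown replicate 2 or 3 (adjusted p = 0.059 to 0.14).

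Matrix lists held more lower than higher genes, with a raised cathepsin among the proteases. Over 6 matrix lists with 200 tested genes 22 were lower (11%) and 9 higher (4.50%), with a median of -0.09. The lower count was 10 without normoxia replicate 3 and 14 without knockdown replicate 2 or 3, and the higher count was 4 without normoxia replicate 3 and 5 without normoxia replicate 1 or knockdown replicate 2 or 3.

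Fbn1, the fibrillin of the microfibrils on which elastin is laid down, stood at 112, 122 and 128 CPM in normoxia and 87.6, 72.6 and 68.2 CPM in the libraries labelled knockdown. All knockdown libraries were below all normoxia libraries (log2 fold change -0.66, SE 0.10, adjusted p = 0.0029). Eln itself, tropoelastin, had 278, 281 and 404 CPM in normoxia and 192, 173 and 156 CPM in the libraries labelled knockdown, with normoxia replicate 3 the highest (log2 fold change -0.89, SE 0.19, adjusted p = 0.015), and its call was lost without normoxia replicate 3 or knockdown replicate 2 or 3 (adjusted p = 0.054 to 0.065). Loxl1, an amine oxidase that cross-links elastin, had -0.92 (adjusted p = 0.012), a call lost without normoxia replicate 3 (adjusted p = 0.058). In the list of elastic fibre and cross-linking genes 4 of 35 were lower and 1 higher; the lower count was 1 without normoxia replicate 3 and 2 without knockdown replicate 2 or 3.

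Most collagen chains did not pass: 3 of 34 tested chains were lower, 40 having been listed, and none was higher. Col5a1, the chain that starts type I fibrils, fell from 64.4, 58.8 and 67.9 CPM in normoxia to 38.1, 36.3 and 24.4 CPM in the libraries labelled knockdown (log2 fold change -0.95, SE 0.15, adjusted p = 0.0029). Col4a4, a type IV chain of the alveolar basement membrane that alveolar type 1 cells make, fell from 266, 312 and 293 CPM in normoxia to 217, 212 and 199.7 CPM in the libraries labelled knockdown (-0.47, adjusted p = 0.0050). Among the main fibrillar chains, Col1a1 was at -0.52 (adjusted p = 0.087) and Col1a2 at -0.04 (adjusted p = 0.91).

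Basement membrane genes included 4 lower, the perlecan gene Hspg2 (-0.51, adjusted p = 0.010) with Lamb2 (-0.31), Lama3 (-0.39) and Lamb1 (-0.42), which are laminin chains. Agrn, a heparan sulphate proteoglycan, was the single higher one (0.38, adjusted p = 0.021). Each of these 5 calls was lost in at least 1 fit without a library, Hspg2 without normoxia replicate 3 (adjusted p = 0.051) and Agrn without normoxia replicate 1, 2 or 3 or knockdown replicate 1 (adjusted p = 0.055 to 0.081), and the count of lower genes was 0 without normoxia replicate 3, 1 without normoxia replicate 1 or knockdown replicate 2 or 3 and 2 without normoxia replicate 2 or hypoxia replicate 3.

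Adamts1, a secreted metalloprotease that cleaves proteoglycans (chromosome 16, 85793827 to 85803113, minus strand), had the smallest p of all structure genes and stood at 255, 253 and 269 CPM in normoxia, 152, 141 and 132 CPM in hypoxia and 76.8, 99.4 and 72.8 CPM in the libraries labelled knockdown. The 3 groups did not overlap, and the knockdown label was lowest (log2 fold change -1.64, SE 0.12, adjusted p = 1e-05). The fall also exceeded that of hypoxia alone (difference -0.77, SE 0.11, adjusted p = 0.0041), which held without each library in turn. Adamts15 (-1.39, adjusted p = 0.0030), Adamts4 (-2.60, adjusted p = 0.0052) and the related microfibril-binding Adamtsl4 (-0.74, adjusted p = 0.0011) fell with it, and 7 of 41 tested proteases and inhibitors were lower in all. That count was 4 without normoxia replicate 3 or knockdown replicate 2 or 3.

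In the list of proteases and inhibitors DESeq2 called 3 higher genes and edgeR called 1, Ctss. It encodes cathepsin S, an elastin-cleaving lysosomal protease of macrophages and dendritic cells that also processes the MHC class II chaperone Cd74, and it had 131, 113 and 134 CPM in normoxia and 233, 341 and 288 CPM in the libraries labelled knockdown. Every knockdown library exceeded every normoxia library (log2 fold change 1.19, SE 0.13, adjusted p = 0.00028). Its difference from hypoxia (0.67, SE 0.13, adjusted p = 0.026) was lost without normoxia replicate 3, hypoxia replicate 1, 2 or 3 or knockdown replicate 2 or 3 (adjusted p = 0.052 to 0.10). Its promoter is shown because it carries the motif of interferon-stimulated genes. The 250 bases before its start (RefSeq, GRCm38.p6, chr3:95526536-95526785, plus strand, written 5′ to 3′ along the gene) hold 1 interferon-stimulated response element, in capitals, 21 bases before the start.
Ctss: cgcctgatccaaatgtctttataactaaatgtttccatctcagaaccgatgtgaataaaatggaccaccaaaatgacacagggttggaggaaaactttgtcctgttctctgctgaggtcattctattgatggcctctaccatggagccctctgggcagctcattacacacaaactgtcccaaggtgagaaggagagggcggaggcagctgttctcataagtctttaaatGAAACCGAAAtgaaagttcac

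Matricellular genes that passed were 3 higher and 2 lower of 40 tested, with a median of 0.00. Over all tested genes 4.79% were higher and 3.44% lower, so counts this small do not set the list apart. The higher count was 1 without normoxia replicate 3. Thbs1, thrombospondin 1, an activator of latent TGF-beta, fell from 384, 359 and 351 CPM in normoxia to 162, 183 and 125 CPM in the libraries labelled knockdown (log2 fold change -1.22, SE 0.18, adjusted p = 0.0018). Sdc3, a heparan sulphate syndecan, rose from 135, 159 and 155 CPM in normoxia to 203, 214 and 220.4 CPM in the libraries labelled knockdown (log2 fold change 0.51, SE 0.08, adjusted p = 0.0038). Tnxb, tenascin X, rose by 0.54 and lost its call without normoxia replicate 3 (adjusted p = 0.056). Among integrins the leukocyte chains Itgal (1.14), Itgb2 (1.11) and Itgax (0.95) were higher, while Itgb3, a vascular and platelet chain (-0.77, adjusted p = 0.0089), and Itgb6, the epithelial chain that activates TGF-beta (-0.97, adjusted p = 0.017), were lower. The 3 leukocyte chains moved beside the summed leukocyte markers given above. The count of higher integrins was 0 without normoxia replicate 1 or knockdown replicate 2 or 3, 1 without normoxia replicate 2 and 6 without hypoxia replicate 2, and Itgb6 lost its call without normoxia replicate 3 or knockdown replicate 1 (adjusted p = 0.051 to 0.076).

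Epithelial lists gave 8 higher and 8 lower genes of 136 tested (5.88% each), with a median of -0.02. The higher count was 1 without normoxia replicate 3, 3 without normoxia replicate 2, 4 without knockdown replicate 1 and 5 without normoxia replicate 1 or knockdown replicate 2, and the lower count was 4 without normoxia replicate 3 and 5 without knockdown replicate 1 or 2. In edgeR none of 31 junction genes passed (8 at an unadjusted p under 0.05) and none of 19 ciliated cell genes (0 at that level), and DESeq2 and limma-voom called 0 of both. Cdh1, epithelial E-cadherin, stood at 391, 352 and 349 CPM in normoxia and 361, 322 and 324 CPM in the libraries labelled knockdown. The surfactant genes Sftpc (0.28, adjusted p = 0.30) and Sftpb (0.34, adjusted p = 0.068) did not pass. Cxcl15, lungkine, a chemokine made by lung epithelium, fell from 1474, 1145 and 1347 CPM in normoxia to 781, 931 and 630.3 CPM in the libraries labelled knockdown (log2 fold change -0.76, SE 0.14, adjusted p = 0.0066). Of the 4 higher type 2 genes, the surfactant protease gene Napsa (0.54) lost its call without normoxia replicate 1 or 3 (adjusted p = 0.056 to 0.073), the mucin gene Muc1 (0.54) without normoxia replicate 2 or 3, hypoxia replicate 3 or knockdown replicate 1 or 2 (adjusted p = 0.053 to 0.15), and the lysozyme gene Lyz1 (1.02) without normoxia replicate 1 or 3 or knockdown replicate 2 (adjusted p = 0.051 to 0.057). Cd74, which antigen-presenting cells share, rose by 0.98 (adjusted p = 0.0034). The number of higher type 2 genes was 1 without normoxia replicate 3, 2 without normoxia replicate 1 or knockdown replicate 2 and 7 without knockdown replicate 3. Beside Cxcl15, the surfactant lipid transporter gene Abca3 was lower (-0.35, adjusted p = 0.043), and the number of lower type 2 genes, 2 of 20, was 1 without normoxia replicate 2 or 3, hypoxia replicate 1 or knockdown replicate 1 or 3.

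Alveolar type 1 genes had 3 lower members of 18 and a median of -0.17, Akap5 (-0.57), Rtkn2 (-0.45) and Col4a4, against an overlapping Ager, the receptor that marks these cells, at 2217, 1884 and 2207 against 1685, 2028 and 1751 CPM (-0.21, adjusted p = 0.33). That count was 1 without normoxia replicate 3. Among genes of fluid clearance, the epithelial sodium channel subunit Scnn1g fell (-0.36, adjusted p = 0.017), a call lost without normoxia replicate 3 or knockdown replicate 2 (adjusted p = 0.051 to 0.062), Scnn1b had -0.24 (adjusted p = 0.065) and Scnn1a 0.21 (adjusted p = 0.29). Sgk1, the kinase that keeps this channel at the surface, fell by 0.75 (adjusted p = 0.014), a call lost without knockdown replicate 2 (adjusted p = 0.051). Clca1, a secreted goblet cell protein, had the largest fold change of the structure lists (9.65, adjusted p = 0.047) but rested on uneven libraries, with 0.253, 0 and 0 CPM (4 counts) in normoxia and 195, 0.0653 and 18.6 CPM in the knockdown label, and its call was lost without normoxia replicate 1, 2 or 3, hypoxia replicate 1 or knockdown replicate 1 or 3 (adjusted p = 0.062 to 0.16).

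Genes of vessel tone were mostly lower among those that passed. Of 36 tested vasoactive ligands and receptors 8 were lower and 1 was higher, with a median of -0.23, and the lower count was 3 without normoxia replicate 3, 4 without knockdown replicate 2 and 5 without knockdown replicate 3. Adm, the vasodilator adrenomedullin and a classical HIF target, fell from 9.86, 8.16 and 10.7 CPM in normoxia to 2.85, 2.09 and 2.87 CPM in the libraries labelled knockdown (log2 fold change -1.87, SE 0.27, adjusted p = 0.0017). Avpr1a, a vasopressin receptor of vascular smooth muscle, fell from 2.02, 2.90 and 3.66 CPM in normoxia to 0.391, 0.457 and 0.293 CPM in the libraries labelled knockdown (-2.89, adjusted p = 0.0024). Npr1, the receptor for atrial natriuretic peptide, fell by 0.49 (adjusted p = 0.0061), and the endothelin receptor gene Ednra by 0.47 (adjusted p = 0.010), the latter lost without normoxia replicate 3 (adjusted p = 0.055). The vasoconstrictor Edn1 had -0.59 (adjusted p = 0.070). Ptgis, prostacyclin synthase, was the higher gene (0.44, adjusted p = 0.016), a call lost without normoxia replicate 2 or 3 or knockdown replicate 2 (adjusted p = 0.056 to 0.080).

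Growth factor genes of the vessel wall were mostly lower among those that passed. Bmp6, an endothelial ligand that also drives hepcidin in liver, fell from 206, 255 and 261 CPM in normoxia to 141, 145 and 127 CPM in the libraries labelled knockdown (log2 fold change -0.81, SE 0.13, adjusted p = 0.0037). Angpt1, the pericyte ligand that stabilises endothelium through its TIE2 receptor, had -0.53 (adjusted p = 0.018), a call lost without normoxia replicate 3 or knockdown replicate 1 or 2 (adjusted p = 0.059 to 0.072), and Vegfc, the lymphatic growth factor, had -0.67 (adjusted p = 0.026), a call lost without normoxia replicate 1 or 3 or knockdown replicate 1 or 2 (adjusted p = 0.084 to 0.095). Skil, a SMAD co-repressor (-0.53), and, named after its value was seen, the receptor gene Tie1 (-0.37) completed the 5 lower members of 45, beside Id2, a BMP-induced inhibitor of transcription factors, as the higher one (0.49). That count was 1 without normoxia replicate 3, 2 without knockdown replicate 1, 3 without normoxia replicate 2 or knockdown replicate 2 and 11 without normoxia replicate 1. Spry1, a feedback inhibitor of FGF signalling, fell by 0.51 (adjusted p = 0.0096).

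Carbohydrate genes leaned higher, led by a regulator of glycolysis. Over 3 lists 10 of 107 tested genes were higher (9.35%, against 4.79% of all genes) and 1 was lower, with 78 fold changes above 0. The higher count was 4 without normoxia replicate 3 or knockdown replicate 2. Pfkfb3 encodes the enzyme that makes fructose 2,6-bisphosphate, the strongest activator of phosphofructokinase, and it had the smallest p of the metabolism lists. The gene (chromosome 2, 11471433 to 11554077, minus strand) stood at 126, 110.2 and 106 CPM in normoxia, 211, 229 and 197 CPM in hypoxia and 302, 268 and 294 CPM in the libraries labelled knockdown. The levels rose stepwise over the groups without overlap (log2 fold change 1.34, SE 0.09, adjusted p = 9.4e-06). The step from hypoxia to the knockdown label (0.44, SE 0.09, adjusted p = 0.038) was lost without normoxia replicate 2 or 3, hypoxia replicate 1 or 3 or knockdown replicate 1 or 3 (adjusted p = 0.057 to 0.17).

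Within the glycolytic chain, of 29 genes 25 had fold changes above 0, the median was 0.18 and 5 passed, and their number was 1 without normoxia replicate 3 or knockdown replicate 2, 2 without normoxia replicate 2 and 3 without knockdown replicate 3. Beside Pfkfb3 these were Hk3, a hexokinase of myeloid cells (1.23), Pfkfb4 (0.39), Gpi1, glucose phosphate isomerase (0.32), and, outside the naming rule and chosen after its value was seen, the lactate exporter Slc16a3 (0.57, adjusted p = 0.029). Ldha, the lactate dehydrogenase subunit that HIF-1α induces, had 329.6, 256 and 277 CPM in normoxia and 345, 380.4 and 339 CPM in the libraries labelled knockdown, which did not overlap but missed the threshold (log2 fold change 0.30, SE 0.11, adjusted p = 0.12). The glucose transporter Slc2a1 overlapped (0.03, adjusted p = 0.93, 95% interval -0.26 to 0.33).

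Pdk1, the kinase that closes pyruvate entry into mitochondria and a classical HIF-1α target, rose from 43.6, 51.1 and 41.9 CPM in normoxia to 70.6, 66.1 and 69.1 CPM in the libraries labelled knockdown (log2 fold change 0.59, SE 0.11, adjusted p = 0.0087). It was the only one of 45 pyruvate and citric acid cycle genes to pass, and the call was lost without normoxia replicate 3 (adjusted p = 0.050). Sord, sorbitol dehydrogenase of the polyol pathway, rose from 62.2, 75.5 and 54.3 CPM in normoxia to 130.3, 138 and 125 CPM in the libraries labelled knockdown (log2 fold change 1.03, SE 0.14, adjusted p = 0.0013). Pck2, mitochondrial phosphoenolpyruvate carboxykinase, rose by 0.48 (adjusted p = 0.0081), and the glycogen phosphorylase gene Pygl by 0.60 (adjusted p = 0.013), a call lost without knockdown replicate 2 (adjusted p = 0.053). Ppp1r3c, which targets phosphatase to glycogen, fell from 23.7, 21.9 and 25.1 CPM in normoxia to 15.2, 15.5 and 14.6 CPM in the libraries labelled knockdown (-0.64, adjusted p = 0.0086).

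No nuclear gene of the respiratory chain passed the edgeR test. Of 78 tested, 6 had an unadjusted p under 0.05, DESeq2 called 1 and limma-voom 0, 56 had fold changes above 0, and the median was 0.04. Of 15 mitochondrially encoded genes 3 were lower, the ribosomal RNAs mt-Rnr2 (-0.95) and mt-Rnr1 (-0.91) and the complex I subunit mt-Nd3 (-0.94). The count was 1 without knockdown replicate 1. Normoxia replicate 3 was the highest in both ribosomal RNAs, with mt-Rnr2 at 772, 711 and 1273 CPM in normoxia and 463, 509 and 452 CPM in the libraries labelled knockdown, and the share of counts from all mitochondrial transcripts was 1.91% to 1.97% in normoxia against 1.61% to 1.89% in the knockdown label.

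Slc25a25 was the single lower gene of 32 in mitochondrial biogenesis, dynamics and uncoupling. It encodes a calcium-regulated carrier that exchanges ATP-magnesium for phosphate across the inner membrane, and it stood at 75.6, 65.3 and 79.7 CPM in normoxia, 36.4, 27.7 and 35.8 CPM in hypoxia and 26.1, 36.9 and 29.8 CPM in the libraries labelled knockdown. Both hypoxic groups lay below normoxia without overlap (log2 fold change -1.25, SE 0.15, adjusted p = 0.00042). RefSeq lists 3 promoters for it, of which only 1 holds a cAMP response element. The 250 bases before one of them (GRCm38.p6, chr2:32424067-32424316, minus strand, 5′ to 3′ along the gene) hold 1 cAMP response element, in capitals, 150 bases before the start, and are shown because that motif was more frequent among lower than among higher genes.
Slc25a25: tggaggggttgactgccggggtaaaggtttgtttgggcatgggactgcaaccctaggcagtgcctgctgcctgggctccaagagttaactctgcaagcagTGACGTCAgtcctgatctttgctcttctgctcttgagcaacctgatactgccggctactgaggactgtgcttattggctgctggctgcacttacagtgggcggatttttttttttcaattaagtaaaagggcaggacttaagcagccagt

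The motif, TGACGTCA read on both strands, stood in the 250 bases before a start of 21 of 441 lower genes with a RefSeq promoter (4.76%), of 5 of 638 higher genes (0.784%) and of 348 of 12434 tested genes (2.80%). It was in 1.55% of all 32851 promoter entries. The immediate early genes, many of which respond to cAMP, had 7 lower and no higher members of 20 tested, among them Nr4a3 (-2.30, adjusted p = 0.0036) and Jun (-0.63, adjusted p = 0.0037). The core of the hypoxia response element, ACGTG, stood before 18.2% of higher, 22.7% of lower and 23.7% of tested genes, and in 16.6% of all entries. These are counts of letters, not of bound sites.

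Lipid genes passed in both directions, at shares near or below those of all tested genes. Over 4 lists with 161 tested genes 5 were higher (3.11%, against 4.79% of all genes) and 6 lower (3.73%, against 3.44%), with a median of 0.04. The higher count was 3 without normoxia replicate 2 or 3 and 8 without normoxia replicate 1, and the lower count was 3 without knockdown replicate 1. Pnpla2, the adipose triglyceride lipase, rose from 105, 121 and 106 CPM in normoxia to 161, 152 and 176 CPM in the libraries labelled knockdown (log2 fold change 0.56, SE 0.09, adjusted p = 0.0041). Npc2, which moves cholesterol out of lysosomes, rose by 0.58 (adjusted p = 0.0049), and Pparg, the nuclear receptor of fat storage and of alveolar macrophages, by 0.94 (adjusted p = 0.011). On the lower side, Lipg, the endothelial lipase, stood at 75.2, 96.1 and 101 CPM in normoxia and 45.5, 34.7 and 55.8 CPM in the libraries labelled knockdown (-1.0, adjusted p = 0.0064). Cd36, the fatty acid translocase that capillary endothelium and macrophages carry, fell from 1684, 1919 and 1811 CPM in normoxia to 1232, 1271 and 1388 CPM in the libraries labelled knockdown (-0.48, adjusted p = 0.0093), beside the lower endothelial sums. Hilpda, a HIF-induced inhibitor of that same triglyceride lipase, fell by 0.75 (adjusted p = 0.013), a call lost without knockdown replicate 1 (adjusted p = 0.050). Acadm, a dehydrogenase of fatty acid oxidation, fell by 0.44, a call lost without normoxia replicate 1, 2 or 3, hypoxia replicate 1 or knockdown replicate 1, 2 or 3 (adjusted p = 0.052 to 0.13).

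Redox genes had 6 higher members of 46 and 1 lower. Osgin1, an oxidative stress-induced growth inhibitor, rose from 18, 17.5 and 19.0 CPM in normoxia to 33.6, 31.7 and 28.4 CPM in the libraries labelled knockdown (log2 fold change 0.78, SE 0.10, adjusted p = 0.00091). G6pdx, the entry enzyme of the pentose phosphate pathway, rose by 0.44 (adjusted p = 0.011), and the glutathione reductase gene Gsr by 0.55 (adjusted p = 0.010). Keap1, which tags the antioxidant factor NRF2 for degradation, rose by 0.46 (adjusted p = 0.012). Gsr and Keap1 lost their calls without normoxia replicate 3 (adjusted p = 0.052 and 0.065), and the higher count was 2 without normoxia replicate 3.

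Amino acid, nucleotide and NAD genes had more higher than lower members. Of 131 tested genes 14 were higher (10.7%) and 5 lower (3.82%), with a median of 0.12. The higher count was 9 without normoxia replicate 3, and the lower count was 1 without knockdown replicate 1, 2 without normoxia replicate 3, hypoxia replicate 3 or knockdown replicate 3 and 3 without normoxia replicate 1. Ass1, argininosuccinate synthase, which returns citrulline to arginine for nitric oxide synthesis, rose from 16.2, 13.4 and 14.3 CPM in normoxia to 30.4, 25.7 and 31.2 CPM in the libraries labelled knockdown (log2 fold change 0.99, SE 0.12, adjusted p = 0.00046). The glutamine transporter Slc1a5 rose from 166, 141 and 142 CPM in normoxia to 215, 212 and 208 CPM in the libraries labelled knockdown (0.50, adjusted p = 0.0037), and the taurine transporter Slc6a6 by 0.74 (adjusted p = 0.0058). Slc38a2, the stress-regulated neutral amino acid transporter, fell by 0.62 (adjusted p = 0.012), a call lost without knockdown replicate 1 (adjusted p = 0.051). For the amino acid list the higher count was 3 without normoxia replicate 3.

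Among nucleotide and one-carbon genes, some stood apart from normoxia in both hypoxic groups, and some in the knockdown label. Mthfd1l, a mitochondrial folate enzyme, stood at 5.38, 6.47 and 5.88 CPM in normoxia, 16.8, 12.4 and 12.7 CPM in hypoxia and 15.4, 18.4 and 17.6 CPM in the libraries labelled knockdown (log2 fold change 1.53, SE 0.16, adjusted p = 0.00019), and its difference from hypoxia did not pass (0.29, adjusted p = 0.55). Mat2a, which makes S-adenosylmethionine, fell, from 834, 641 and 671 CPM in normoxia to 290.5, 359 and 317 CPM in the libraries labelled knockdown (log2 fold change -1.15, SE 0.12, adjusted p = 0.00014), and hypoxia stood at 370.4, 385 and 338 CPM, also below normoxia.

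Xdh, xanthine oxidoreductase, which makes uric acid and reactive oxygen, behaved otherwise. The gene (chromosome 17, 73883895 to 73950196, minus strand) stood at 398, 533 and 448 CPM in normoxia, 425, 492 and 446 CPM in hypoxia and 1181, 809.7 and 1293 CPM in the libraries labelled knockdown. Normoxia and hypoxia overlapped, and the knockdown label lay above both (Xdh log2 fold change 1.25, SE 0.16, adjusted p = 0.00092; against hypoxia 1.27, SE 0.16, adjusted p = 0.0016). Samhd1, a dNTP hydrolase that restricts viruses, was also highest in the knockdown label, with 271, 314 and 301 CPM in normoxia, 403, 315 and 348 CPM in hypoxia and 702, 727 and 713 CPM in the libraries labelled knockdown (log2 fold change 1.27, SE 0.10, adjusted p = 2.1e-05; against hypoxia 1.01, SE 0.10, adjusted p = 0.00021). Cmpk2, a mitochondrial nucleotide kinase induced by interferon, rose as well (1.79, adjusted p = 3.4e-05; against hypoxia 1.87, SE 0.15, adjusted p = 5.1e-05).

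NAD and tryptophan metabolism gave 2 higher genes of 31 and none lower, too few to set the list apart from the 4.79% higher of all genes. Nampt, the rate-limiting enzyme of NAD salvage, had 115, 99.3 and 108 CPM in normoxia, 99.3, 120.3 and 96.0 CPM in hypoxia and 213, 183 and 243 CPM in the libraries labelled knockdown (log2 fold change 0.99, SE 0.12, adjusted p = 0.00057; against hypoxia 1.02, SE 0.12, adjusted p = 0.00093). Ido1, which opens tryptophan breakdown to kynurenine, rose from 1.77, 2.48 and 1.26 CPM in normoxia to 22.5, 32.3 and 17.3 CPM in the libraries labelled knockdown (log2 fold change 3.71, SE 0.36, adjusted p = 0.00011; against hypoxia 2.44, SE 0.33, adjusted p = 0.0022). The interferon-stimulated genes rose in the same libraries, and the part of interferon in these values was not tested.

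**Figure D5:**
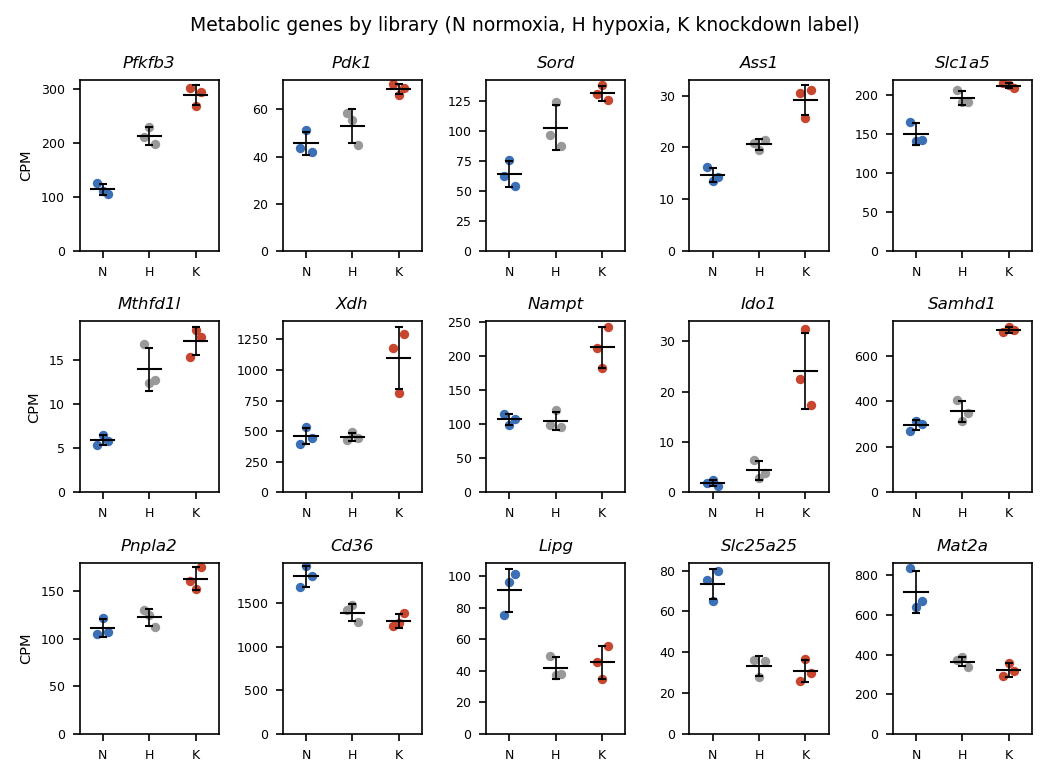
CPM of 15 metabolic genes in each library, with 1 point per library, the group mean as a bar and its SD as whiskers (n = 3 libraries). For Xdh, Nampt, Ido1 and Samhd1 the libraries labelled knockdown stand above both other groups, whereas for Slc25a25, Mat2a, Lipg and Mthfd1l the hypoxia libraries lie near them.

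Enzymes of activated macrophages were the metabolic list with the highest share of higher genes. Of 17 tested 9 were higher and none lower, with a median of 0.80, and the count was 4 without normoxia replicate 2 or 3 or knockdown replicate 2. Acod1, which makes itaconate from a citric acid cycle intermediate, rose from 0.0632, 0.604 and 0.480 CPM in normoxia to 3.91, 4.77 and 2.99 CPM in the libraries labelled knockdown (log2 fold change 3.31, SE 0.50, adjusted p = 0.0024; against hypoxia 3.08, SE 0.49, adjusted p = 0.0069), a low level throughout. Chil1, a chitinase-like protein, rose by 0.44 (adjusted p = 0.019), a call lost without normoxia replicate 2 or 3 or knockdown replicate 1 or 2 (adjusted p = 0.058 to 0.084). Monocyte and interstitial macrophage markers, 12 of 18 of which were higher and 1 lower, moved beside these genes. C1qb (1.45, adjusted p = 2e-05) and the Fc receptor gene Fcgr4 (2.85, adjusted p = 3.7e-05) are examples. Eicosanoid genes had 7 higher of 37 and none lower; the count was 2 without normoxia replicate 3, 3 without normoxia replicate 2 and 4 without normoxia replicate 1 or knockdown replicate 2 or 3. Ephx1, an epoxide hydrolase, rose by 0.52 (adjusted p = 0.0047), a call kept without each library in turn, and Ptger4, a prostaglandin E receptor, by 0.94, a call lost without normoxia replicate 3 (adjusted p = 0.053).

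Iron and haem genes had 5 higher and 2 lower members of 38. Alas2, the first enzyme of haem synthesis in red cell precursors, fell from 57.4, 126 and 151 CPM in normoxia to 7.37, 10.5 and 8.20 CPM in the libraries labelled knockdown (log2 fold change -3.68, SE 0.31, adjusted p = 3.7e-05), beside the lower red cell sums. Slc39a14, an importer of iron and zinc, was the other lower gene (-0.56, adjusted p = 0.030), and the lower count was 1 without normoxia replicate 1 or 3 or knockdown replicate 1, 2 or 3. Lcn2, lipocalin 2, which binds bacterial siderophores, rose from 68.9, 62.7 and 63.0 CPM in normoxia to 113, 119 and 100.1 CPM in the libraries labelled knockdown (log2 fold change 0.78, SE 0.10, adjusted p = 0.00075), and the ferrireductase gene Steap4 rose by 1.13 (adjusted p = 0.0030). Tfrc, the transferrin receptor, rose by 0.45, a call lost without normoxia replicate 3 (adjusted p = 0.065). The higher members, with the iron regulator gene Hfe (0.47) and, named after its value was seen, the globin gene Cygb (0.69, adjusted p = 0.035), numbered 2 without normoxia replicate 3 and 3 without knockdown replicate 2. Of the remaining lists, xenobiotic and retinoid genes had 4 higher and 1 lower of 46, the 4 being 0 without knockdown replicate 3, 1 without normoxia replicate 3 or knockdown replicate 1 and 2 without normoxia replicate 1 or 2, hypoxia replicate 3 or knockdown replicate 2. Carbonic anhydrases and pH regulators had 2 lower of 20, of which Slc4a1 is a red cell gene, and the count was 1 without normoxia replicate 2 or 3 or knockdown replicate 1 or 3. None of 17 writers and erasers of lactylation and acetylation passed in edgeR, with a median of 0.04, 2 at an unadjusted p under 0.05, 1 call in DESeq2 and 0 in limma-voom. Among 50 cytosolic ribosomal protein genes 47 had fold changes above 0 with a median of 0.20, and 2 passed. That count was 0 without normoxia replicate 2 or 3, hypoxia replicate 3 or knockdown replicate 2 or 3, 1 without hypoxia replicate 1 or 2 and 5 without normoxia replicate 1, and 0 with the replicate number as a block. The summed level of normoxia replicate 1, 19839 CPM, lay inside the range of the knockdown label, 17836 to 21762 CPM.

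Outside structure and metabolism, interferon, clock and heat shock genes moved in these libraries. Interferon-stimulated genes were higher in 39 of 40 tested with a median of 2.69, and MHC class I and peptide-loading genes in 19 of 20 with a median of 1.32. In hypoxia without the knockdown, against the same normoxia libraries, 11 of 40 and 12 of 20 were higher, with medians of 0.33 and 0.74. Ifit3, an antiviral effector, stood at 34.1, 46.2 and 47.7 CPM in normoxia, 70.2, 71.5 and 81.1 CPM in hypoxia and 462, 412 and 380.1 CPM in the libraries labelled knockdown (log2 fold change 3.29, SE 0.14, adjusted p = 9.8e-07). Its promoter is printed as the reference case for the motif that Ctss also holds. The 250 bases (RefSeq, GRCm38.p6, chr19:34583279-34583528, plus strand, 5′ to 3′ along the gene) carry 2 interferon-stimulated response elements on the opposite strand, in capitals, 156 and 122 bases before the start.
Ifit3: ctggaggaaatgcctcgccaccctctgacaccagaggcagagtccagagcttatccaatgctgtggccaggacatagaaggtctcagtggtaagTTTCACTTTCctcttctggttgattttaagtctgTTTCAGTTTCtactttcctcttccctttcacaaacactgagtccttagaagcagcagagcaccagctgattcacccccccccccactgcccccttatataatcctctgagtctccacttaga

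That motif, GAAA, any 2 bases and GAAA again, read on both strands, stood before 86 of 638 higher genes with a promoter entry (13.5%), before 12 of 441 lower genes (2.72%) and before 420 of 12434 tested genes (3.38%). It was in 2.98% of all 32851 promoter entries. A gene counted once however many of its starts held the motif, and no motif given here contains another.

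Clock genes changed in 13 of 20 cases, 9 higher and 4 lower. Per3, a period gene of the repressor arm, stood at 35.6, 38.9 and 33.2 CPM in normoxia and 173, 158 and 171 CPM in the libraries labelled knockdown (log2 fold change 2.22, SE 0.13, adjusted p = 3.4e-06), and Arntl, the BMAL1 activator, at 43.3, 44.4 and 53.4 CPM in normoxia and 3.41, 4.25 and 4.63 CPM in the libraries labelled knockdown (log2 fold change -3.52, SE 0.28, adjusted p = 2.5e-05). The hypoxia libraries were at 132, 190.5 and 144 CPM for Per3 and at 9.14, 3.99 and 4.48 CPM for Arntl, far from normoxia in the same direction. The hour of collection is not given, and its part was not tested. The Per3 promoter (RefSeq, GRCm38.p6, chr4:151044666-151044915, minus strand, 5′ to 3′ along the gene) is shown because it holds the clock motif D-box, TTATGTAA, in capitals, 205 and 158 bases before the start.
Per3: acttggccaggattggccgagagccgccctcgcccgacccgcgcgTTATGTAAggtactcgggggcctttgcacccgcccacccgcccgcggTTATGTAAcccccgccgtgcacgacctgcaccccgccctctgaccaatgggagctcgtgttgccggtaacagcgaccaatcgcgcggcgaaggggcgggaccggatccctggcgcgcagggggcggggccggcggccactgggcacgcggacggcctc

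The D-box, read on both strands, stood before 1.72% of higher, 0.680% of lower and 0.716% of tested genes, and in 0.819% of all entries. Heat shock genes were lower in 11 of 18 cases with a median of -0.83, and the count was 4 without normoxia replicate 1 or 3 or knockdown replicate 2 and 5 without knockdown replicate 1 or 3. It was 6 with limma-voom and 6 with the replicate number as a block. Their summed level in normoxia replicate 2, 3367 CPM, lay inside the range of the knockdown label, 2913 to 3494 CPM, while normoxia replicates 1 and 3 were at 7666 and 7044 CPM. Dnajb4, a co-chaperone, fell from 132, 95.8 and 128 CPM in normoxia to 65.5, 66.4 and 71.6 CPM in the libraries labelled knockdown (-0.81, adjusted p = 0.0042). T cell genes were higher in hypoxia than in normoxia in 18 of 20 cases. They had no member called by edgeR in either direction between the knockdown label and normoxia, with 2 at an unadjusted p under 0.05, 1 call in DESeq2 and 0 in limma-voom. Their sums were uneven in hypoxia, at 779, 279 and 670 CPM, against 121 to 155 CPM in normoxia and 150 to 188 CPM in the knockdown label.

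Set against hypoxia alone, few genes passed, in the whole table as in the structure and metabolism lists. Interferon-stimulated genes differed from this, with 38 of 40 higher in the knockdown label than in hypoxia and a median of 2.27. Of 20 MHC class I and peptide-loading genes 13 were higher than in hypoxia, with a median of 0.67. In that comparison 301 of 17578 genes passed (1.71%), 222 higher (1.26%) and 79 lower (0.449%) in the knockdown label. Among 540 structure genes 3 were higher and 2 lower, and among 776 metabolism genes 10 were higher and 1 lower. These counts are read beside the shares of all genes, and being few they are not a result about the lists. Named structure and metabolism genes that held without each library in turn included Adamts1 on the lower side and Xdh, Samhd1, Cmpk2, Nampt, Ido1 and Acod1 on the higher side. Of the steepest rises over normoxia, Irf7 (3.49, SE 0.18, adjusted p = 4.4e-06) and Gbp10 (4.47, SE 0.28, adjusted p = 1.4e-05) also stood above hypoxia. Cd5l did so as well (3.82, SE 0.50, adjusted p = 0.0018), while Dbp did not (-0.35, SE 0.21, adjusted p = 0.62). For the endothelial genes, none of 61 passed in edgeR and 12 had an unadjusted p under 0.05. Klf2 (-0.42, SE 0.15, adjusted p = 0.30), Klf4 (-0.32, SE 0.17, adjusted p = 0.55) and Cdh5 (-0.21, SE 0.09, adjusted p = 0.46) were below hypoxia without passing, whereas Slc6a2 (0.01, SE 0.17, adjusted p = 1.0) and Vwf (0.01, SE 0.12, adjusted p = 0.99) had values near 0, and the median of the 61 genes against hypoxia was 0.01. A p that misses the threshold does not show that both hypoxic groups were alike. Hypoxia replicate 2 had the hypoxia score nearest to normoxia on the first principal component, at -5.07, and 14 of 20 T cell markers were lower in the knockdown label than in hypoxia.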

How the data were processed

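The authors deposited raw read counts (whole numbers) of 30865 genes in 9 libraries as 1 table, of which 6 libraries form the comparison. The labels' protocols name RNeasy Mini Plus for RNA and NEBNext Ultra for libraries. The submitters' processing notes name build mm10 and the tools DESeq, limma, StringTie, TopHat, HISAT2 and bcl2fastq. Which program counted the reads, and whether by strand, is not given in the sources used here, so genes that overlap on either strand may share reads, and near-identical genes are uncertain one by one.

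The test was that of edgeR 4.0.16 (R 4.3.3) on these counts. Its filterByExpr kept 17578 genes, TMM factors were 0.976 to 1.03, and 1 quasi-likelihood fit over all 9 libraries, with 6 residual degrees of freedom and 1 coefficient per group, gave each contrast. This shares the estimate of spread (common biological coefficient of variation 17.3%), so leaving out a hypoxia library can also move a call. Adjustment was by the Benjamini-Hochberg method across every tested gene, with calls at 0.05, and every adjusted p in the text is from this test unless another is named. Standard errors come from the F statistic. CPM are TMM-scaled. No library repeats another: between replicates, chi-square divided by its degrees of freedom was 11.9 to 23.5. The script was tested on simulated counts.

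The 67 gene lists and the genes described were chosen with earlier results of these data known. The lists hold 1770 distinct entries, of which 1762 were found under the listed symbol, 3 under an older one and 5 were not found. Named genes are a fixed HIF set, the 8 largest rises and falls whose groups did not overlap and averaged 1 CPM or more, and up to 4 called members per direction of each structure or metabolism list (2 for other lists), plus 2 markers per cell type as levels. The 8 largest rises and falls were taken from called genes only. Predicted genes (Gm and Rik symbols), genes without a symbol, and immunoglobulin and T cell receptor segments were left out of them. Some genes that the rule names are not reported here. Lists were described by counts and medians. Positions come from GENCODE M21 (GRCm38) and promoters from RefSeq (GRCm38.p6), cut to 250 bases before the start, with an entry for 12434 of 17578 tested genes. Alternatives were DESeq2 size factors, the DESeq2 1.42.0 Wald test, limma 3.58.1 voom, other filters on low counts, a fit of the 6 libraries alone, a replicate block and leaving out each library.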

Additional observations from a re-analysis of the deposited data

How the results depend on the processing

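No called gene that is named changed direction under any alternative run. The 842 higher and 604 lower genes were 1147 and 927 with the DESeq2 Wald test, 760 and 560 with limma-voom, 1062 and 788 without a filter on low counts, and 862 and 512 in a fit of the 6 libraries alone. Leaving out 1 library gave 457 to 935 higher and 258 to 632 lower genes, lowest without normoxia replicate 3 in both directions. Among 195 called named genes, 102 were called in every fit that left out 1 library. Replicate numbers appear in all groups, and the deviations of same-numbered libraries from their group means correlated between -0.45 and 0.29. Libraries with different numbers correlated between -0.33 and 0.47, so the numbers showed no pairing. Deviations within groups of 3 depend on each other, so they cannot exclude pairing or a shared batch. With a replicate block there were 584 higher and 352 lower genes. The 3 libraries per group limit how small a fold change can pass, and 4058 genes had an unadjusted p under 0.05 against 1446 called. Genes at low CPM in every library, such as Acod1 and Avpr1a, rest on few reads.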

Other observations

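Some genes of cytotoxic lymphocytes and of myeloid cells were higher in the knockdown label than in normoxia. Of 16 natural killer and cytotoxic genes 15 were higher and none lower, with a median log2 fold change of 2.19. Hypoxia without the knockdown, against the same normoxia libraries, had 16 of 16 higher with a median of 2.5, and the median of the knockdown label against hypoxia was -0.33. Ncr1, an activating receptor of natural killer cells, rose from 2.66, 4.77 and 3.78 CPM in normoxia to 22.5, 20.5 and 32.5 CPM in the libraries labelled knockdown (log2 fold change 2.75, SE 0.30, adjusted p = 0.00024), and Prf1, the pore-forming perforin, by 2.37 (adjusted p = 0.00038). Ly6c2, a surface protein of inflammatory monocytes, rose from 10.1, 10.8 and 9.54 CPM in normoxia to 56.5, 95.1 and 55.8 CPM in the libraries labelled knockdown (log2 fold change 2.77, SE 0.39, adjusted p = 0.0014). Ly6g, the neutrophil surface marker, rose from 0.506, 0.967 and 0.660 CPM in normoxia to 2.29, 5.49 and 4.28 CPM in the libraries labelled knockdown (2.48, adjusted p = 0.0043). Of 15 neutrophil genes 5 were higher and none lower. That count was 2 without normoxia replicate 1 or 3 or knockdown replicate 3, and 3 without knockdown replicate 2. Ciita, the transactivator of MHC class II genes, rose from 23, 34.8 and 27.2 CPM in normoxia to 138, 144 and 132 CPM in the libraries labelled knockdown (log2 fold change 2.29, SE 0.13, adjusted p = 2.7e-06), and 7 of 10 class II genes were higher. Hypoxia without the knockdown also had 7 of 10 higher than normoxia, and 2 of 10 were higher in the knockdown label than in hypoxia.

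Cytokine and chemokine genes passed in both directions, and a mast cell gene fell. Of 19 tested inflammatory cytokines and chemokines 5 were higher and 2 lower, with a median of 0.48. The higher count was 1 to 4 with 1 library left out. Of 15 dendritic, mast and basophil genes 1 was higher and 1 lower, too few to set that list apart. Over all tested genes 4.79% were higher and 3.44% lower. Cxcl5, an epithelial neutrophil chemokine, fell from 2.47, 2.30 and 1.38 CPM in normoxia to 0.168, 0.196 and 0.117 CPM in the libraries labelled knockdown (log2 fold change -3.62, SE 0.49, adjusted p = 0.0011). Tnf, the inflammatory cytokine, rose from 0.506, 0.544 and 0.240 CPM in normoxia to 1.62, 1.76 and 1.76 CPM in the libraries labelled knockdown (1.98, adjusted p = 0.0074), all below 2 CPM. Cpa3, a carboxypeptidase of mast cells and basophils, fell from 8.28, 6.04 and 9.30 CPM in normoxia to 2.12, 2.55 and 1.99 CPM in the libraries labelled knockdown (-1.83, adjusted p = 0.0021). All knockdown libraries lay outside the normoxia range for each of these 3 genes. They were named because they had been called, so that separation is no further evidence.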
